A study of Mus musculus with 8 samples.

Results

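The nuclear-encoded subunits of the mitochondrial respiratory chain and of the ATP synthase were followed on 8 one-colour Agilent mouse arrays. All non-control probes were taken whose gene name in the scanner files is Nduf with a letter a, b, c, s or v (complex I), Sdha to Sdhd (complex II), Uqcr with any ending or Cyc1 (complex III), Cox4 to Cox8 with any ending (complex IV), Atp5 with any ending (complex V, the ATP synthase) or Cycs (cytochrome c). This name rule found 120 of 41174 probes, for 85 of 27745 gene names. Complexes were assigned by name alone, so that Ndufa4 is counted in complex I. Complex I had 54 probes for 36 genes, complex II 5 for 4, complex III 11 for 8, complex IV 18 for 17, complex V 23 for 15, and cytochrome c 3 for 1. The remaining 6 probes belonged to 4 genes that the name patterns take in although they are not counted as subunits here, namely Ndufaf1 and Ndufa12l, known as assembly factors of complex I, and Atp5s and Cox4nb. They are described apart.

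The RNA came from haematopoietic stem cells (HSC), the bone marrow cells that renew themselves and form all blood lineages, recovered by cell sorting from transplanted mice. All cells were of donor origin. The donors were wild type (WT) or lacked E47 (KO), a basic helix-loop-helix transcription factor encoded by Tcf3, and the cells were taken from primary recipients or from secondary recipients, which makes 4 groups of 2 arrays. The sources used here do not give the strain or age of the mice, the number of donors and recipients behind an array, or how E47 was deleted. The cDNA of few cells was amplified by PCR before labelling. All 4 WT arrays lay on slide 1, both arrays of KO cells from secondary recipients on slide 2 and both of KO cells from primary recipients on slide 3, so that genotype and slide cannot be told apart. Nor can recipient and slide within KO cells, whereas WT cells of both kinds of recipient shared a slide. It is not stated whether replicate arrays were made from cells sorted separately, so p-values measure only how far these arrays differ, which may be a technical spread. A group is called below by genotype and kind of recipient, as in WT primary or KO secondary.

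Complexes I and II take electrons from NADH and succinate and hand them to ubiquinone, complex III passes them on to cytochrome c, and complex IV delivers them to oxygen. Complexes I, III and IV pump protons across the inner mitochondrial membrane as they do so, and the ATP synthase makes ATP from the returning protons. Most subunits are encoded in the nucleus, and a few core subunits by mitochondrial DNA. Quiescent HSC are known for low respiration and a reliance on glycolysis, and respiration rises when they are activated or differentiate.

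A level below is log2 of a probe's processed signal minus the 75th percentile of that array. A difference is that between the mean levels of 2 groups, minus the median difference of all 32776 probes tested. That median was 0.33, 0.40 and 0.31 for KO against WT in primary recipients, in secondary recipients and in both, and -0.75, -0.38 and -0.52 for secondary against primary recipients in WT, in KO and in both. P-values come from limma and refer to the difference before this centring. Replicate 2 of both primary groups was dim, with a 75th percentile of 36.6 in WT and 19.6 in KO against 320.7 to 846.9 on the other arrays, and 41.9% and 35.4% of spots well above background against 72.2% to 90.7%. The share of unadjusted calls that were higher, over all probes, depended on the scaling: it was 31.8% to 51.8%, 39.5% to 65.3% and 43.4% to 73.4% for KO against WT in primary, secondary and both, and 13.3% to 72.1%, 34.4% to 69.5% and 10.9% to 53.1% for secondary against primary in WT, KO and both. Markers of HSC were detected for 7 to 12 of 12 genes per array, and those of erythroid, B, T and NK cells for 3 to 6 of 6. Markers of granulocytes and monocytes, 12 genes, were detected for 11 or 12 on primary arrays and 9 to 11 on secondary ones. Their median level relative to the array's median probe was 4.63 to 11.89 on the 4 primary arrays and -1.97 to -0.84 on the 4 secondary ones.

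Most of the respiratory chain probes could be tested. Of the 120 probes, 119 had a value on every array (1 of the 3 Cycs probes had an outlier spot), and 113 entered the test because some group had both of its arrays well above background for them, which covered 84 of the 85 genes. The gene without a tested probe was Cox8c, known as a testis form of complex IV subunit 8, which was well above background on 1 array. Of the 113 probes, 51 (45.1%) were well above background on all 8 arrays, against 35.6% of all probes tested. By complex these were 22 of 49 probes of complex I, 3 of 5 of complex II, 7 of 11 of complex III, 9 of 17 of complex IV, 9 of 23 of complex V and 1 of 2 of cytochrome c. Of the probes named Ndufs1, the largest core subunit of complex I, 1 was well above background on 0 arrays and the other on all 8. The files place these on opposite strands of chromosome 1, so they do not read the same RNA strand.

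**Figure D1:**
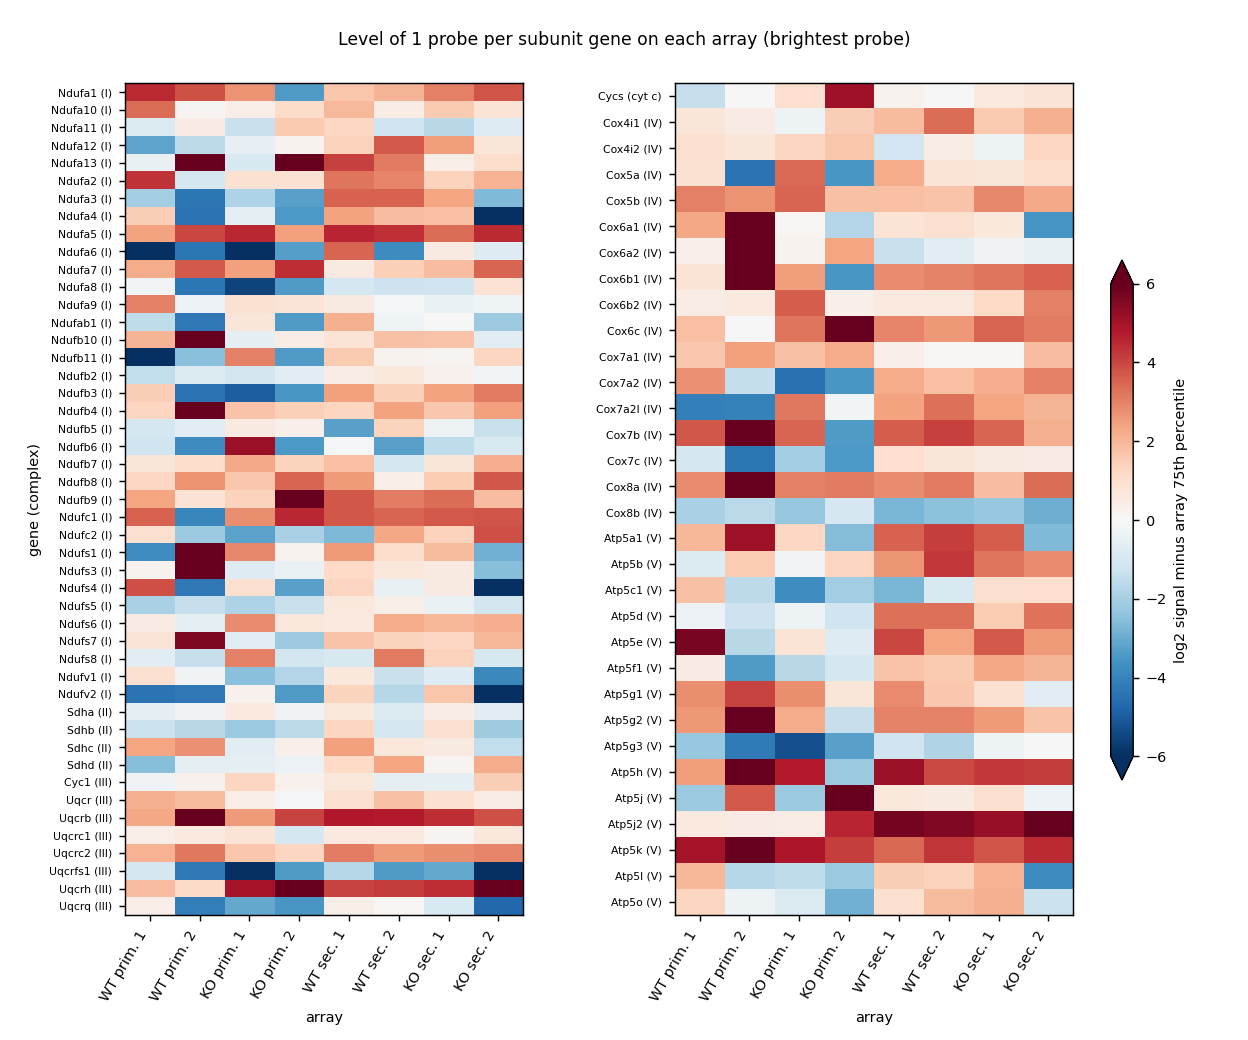
Level (log2 processed signal minus the array's 75th percentile, colour scale capped at -6 and 6) of 79 of the 81 subunit and cytochrome c genes, each by its brightest probe, on the 8 arrays, with complexes I to III on the left and cytochrome c and complexes IV and V on the right. The columns of replicate 2 of both primary groups hold the highest levels of single genes.

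The median of the 107 tested subunit probes lay above the median probe on every array. Relative to that probe it stood at 2.24 and 1.40 on the WT primary arrays, at 1.91 and 0.74 on KO primary, at 2.88 and 2.87 on WT secondary and at 2.51 and 2.49 on KO secondary. All 4 secondary arrays were thus above all 4 primary ones, and in each primary group the dim array was the lower. Of the 5 complexes, complex V showed the widest gap between kinds of recipient, with group means of 1.93 (WT) and 0.83 (KO) in primary and 3.76 and 3.06 in secondary recipients. Complex III did not show this order in WT cells, with 2.85 and 1.97 in primary and 2.30 and 2.22 in secondary recipients. Complex I stood at 1.23 and 1.01 in primary and 2.69 and 1.97 in secondary recipients.

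**Figure D2:**
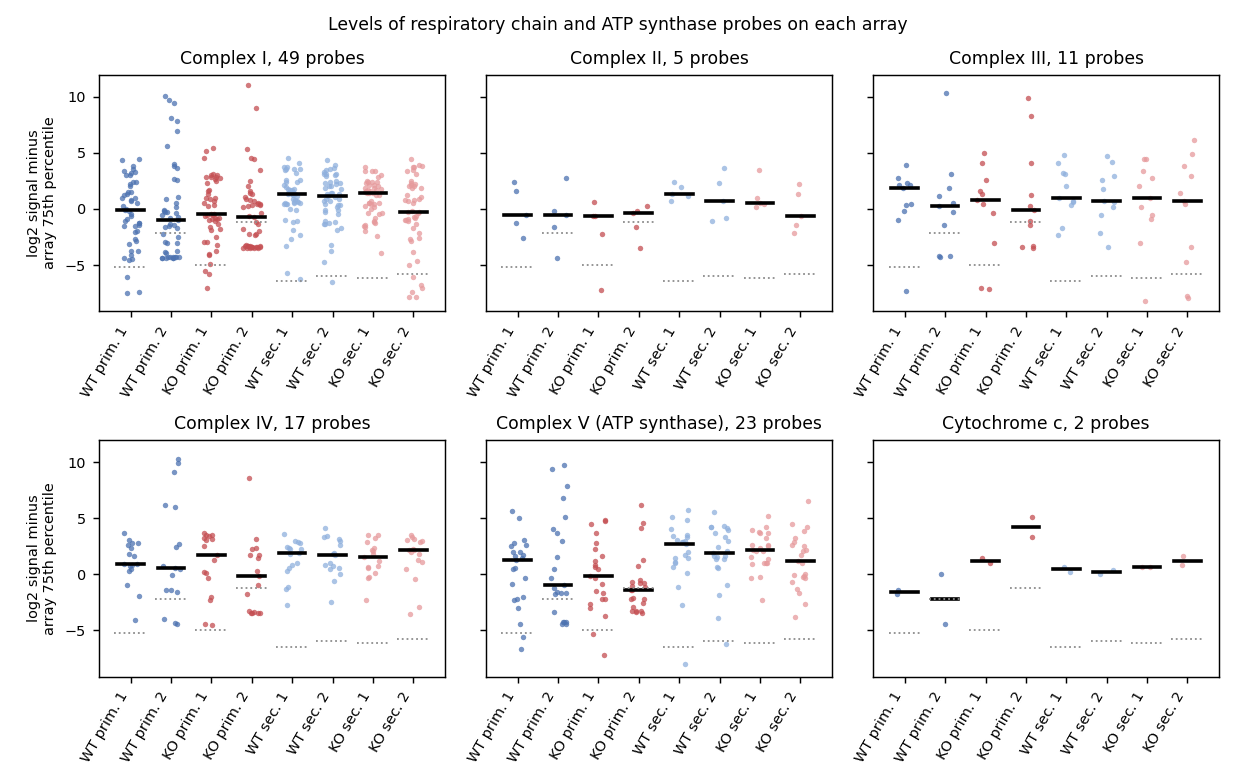
Levels (log2 processed signal minus the array's 75th percentile) of the tested probes of complexes I to V and cytochrome c on each array: points are probes, black bars medians, dotted lines the level of the dimmest signal well above background on that array. On replicate 2 of WT primary and of KO primary that line lies at -2.18 and -1.20, against -6.45 to -5.00 on the other arrays. At or below it lie 39 and 52 of the 113 tested members, which include the 6 probes described apart that are not drawn.

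Single genes varied over a wide range. In complex I the brightest probes of Ndufa5 and Ndufb2, both accessory subunits, stayed within 2.15 and 2.16 log2 units over the 8 arrays, while the core subunit Ndufs3 spanned 12.25 and the accessory subunit Ndufs4 10.92. Uqcrc1 and Uqcrc2, the core proteins of complex III, spanned 1.86 and 1.87, against 8.75 for Uqcrh and 8.01 for Uqcrb. In complex IV Cox5b and Cox8b spanned 1.75 and 1.94, against 13.84 for Cox6a1 and 13.32 for Cox7b. In complex V, by the brightest probe of each gene, the ranges of Atp5k (4.42) and Atp5d (4.56) were the smallest and those of Atp5h (11.99) and Atp5j (8.44) the largest. Cox6a1, the general form of complex IV subunit 6a, had levels of 2.34 and 10.28 on WT primary, 0.13 and -1.74 on KO primary, 0.81 and 0.98 on WT secondary and 0.63 and -3.56 on KO secondary. The single high value is the dim WT array, where its signal was 45474. Ndufs3, Uqcrb and Cox7b also had their highest levels on the dim WT array, at 9.68, 10.33 and 9.94. On the other arrays they reached at most 1.18, 4.80 and 4.11. Uqcrh was highest on the dim KO array, at 9.89, and reached at most 6.15 elsewhere. These ranges thus rest on single dim arrays. The lowest levels of Ndufs4 (on replicate 2 of KO secondary), and of Cox7b and Atp5h (on the dim KO array), were not well above background, so the low end of these 3 ranges was not measured.

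Replicates of the primary groups differed more for these genes than for all probes. The median absolute difference between the replicates was 2.37 for the 113 probes and 1.56 for all probes in WT primary, and 1.88 and 1.63 in KO primary. It was 1.01 and 0.91 in WT secondary and 1.11 and 1.24 in KO secondary.

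The forms of complex IV subunits known for single tissues were detected too. Probes of Cox4i2 (the lung form of subunit 4), Cox6a2, Cox7a1 and Cox8b (heart and muscle forms) and Cox6b2 (a testis form) were well above background on all 8 arrays. Cox8b had levels of -1.93 and -1.61 on WT primary, -2.26 and -0.99 on KO primary, -2.74 and -2.46 on WT secondary and -2.26 and -2.94 on KO secondary. Markers of muscle and testis fixed with the lists were detected as well, 6 or 7 of 7 on every array, and their part in this result was not tested. The general forms Cox4i1 and Cox8a were well above background on all 8 arrays, and Cox6a1, Cox6b1, Cox7a2 and Cox7b on 7 each. No probe carried the name Cox7b2 or Ndufa4l2.

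Secondary and primary recipients were compared over both genotypes, 4 arrays against 4. Atp5b, the catalytic beta subunit of the ATP synthase, passed the test as higher in secondary recipients by 2 of its 3 probes, and no other member passed. The probe at base 455 of the transcript spans an exon junction at chr10:127487371-127488049, and the one at base 698 lies at chr10:127488462-127488521 (mm8, plus strand). These 2 of the 3 probes are shown because they read neighbouring stretches of one mRNA with different sizes of difference.
Atp5b probe at base 455: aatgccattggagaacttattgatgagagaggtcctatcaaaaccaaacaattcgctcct
Atp5b probe at base 698: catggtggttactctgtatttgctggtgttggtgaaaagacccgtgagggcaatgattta

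The probe at base 455 had levels of -6.70 and -4.30 on WT primary and -2.70 and -3.29 on KO primary, against 2.91 and 4.20 on WT secondary and 2.59 and 2.62 on KO secondary. Its difference was 7.85 (SE 0.98, limma adjusted p = 0.046). The probe at base 1689, at chr10:127493148-127493207, had levels of -4.45, -4.41, -3.06 and -3.45 on the primary arrays and 1.13, 0.61, 1.39 and 2.18 on the secondary ones, with a difference of 5.69 (SE 0.65, limma adjusted p = 0.046). The primary and secondary arrays did not overlap for either probe. On primary arrays the first probe was well above background on 1 of 4 and the last on 2 of 4, so part of these levels are bounds. In neither primary group were both arrays well above background, so both probes entered the test only through the secondary groups. The probe at base 698, well above background on all 8 arrays, had levels of -0.83 and 1.52 on WT primary and -0.18 and 1.30 on KO primary. It stood at 2.65 and 4.23 on WT secondary and at 3.22 and 2.83 on KO secondary. Its difference was 3.31 (SE 0.84, limma adjusted p = 0.219), without overlap between kinds of recipient. Leaving out any 1 of the 8 arrays ended both calls, with the lowest adjusted p of any member then between 0.061 and 0.235. Both calls were also lost under normexp background correction, array median scaling, the deposited values and no filter, and without both dim arrays, while the difference stayed between 4.99 and 8.43 for the probe at base 455 and between 3.48 and 6.77 for that at base 1689 over the alternatives that kept these probes.

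In all, 2 of 113 members passed (1.77%), both of them probes of Atp5b, against 0.314% of all probes tested. At an unadjusted p under 0.05, 19 members (16.8%) were higher in secondary recipients and 0 lower, against 7.0% and 10.4% of all probes. For 14 members (12.4%) every secondary array lay above every primary one, against 4.07% of all probes, and for 2 (1.77%) every secondary array lay below, against 10.6%. Without both dim arrays these counts were 25 (22.1% against 10.3%) and 5 (4.42% against 18.1%). With every level raised to that of the lowest signal well above background on its array, they were 12 (10.6% against 2.56%) and 2 (1.77% against 12.9%). With levels relative to each array's median probe they were 12 (10.6% against 3.48%), without Cox4i1 and Sdhd, and 2 (1.77% against 13.2%). The members counted as higher include probes that entered the test only through the secondary groups, where they were high. Both called Atp5b probes, Cox7c, Ndufb3 and Ndufa3 are among them, and their full number was not counted. These counts are therefore not independent of the filter, which also applies to all probes and to the comparisons within WT and within KO below. Members lay above the median probe for 85 of 113, with a median difference of 1.22. The median was 1.22 for complex I, 1.97 for complex II, 0.71 for complex III, 0.42 for complex IV and 1.69 for complex V. The levels of granulocyte and monocyte markers given above moved with the kind of recipient, with a median difference of -7.52 over 12 genes, 12 of them below the median probe. The median levels of B cell and erythroid markers relative to the median probe did not overlap between kinds of recipient either, at 0.79 to 1.76 and 0.66 to 2.52 on the primary and -0.98 to 0.24 and -0.03 to 0.46 on the secondary arrays, while those of T and NK cells and of megakaryocytes overlapped. Markers of HSC overlapped too, with a median difference of 1.31, 9 of 12 above the median probe and 3 below. Of the 12 HSC genes 1 passed the adjusted test with limma, as did 2 of the 12 of granulocytes and monocytes. The part of these markers in the results was not tested. In bulk samples fewer cells of a type and less RNA per cell cannot be told apart.

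**Figure D3:**
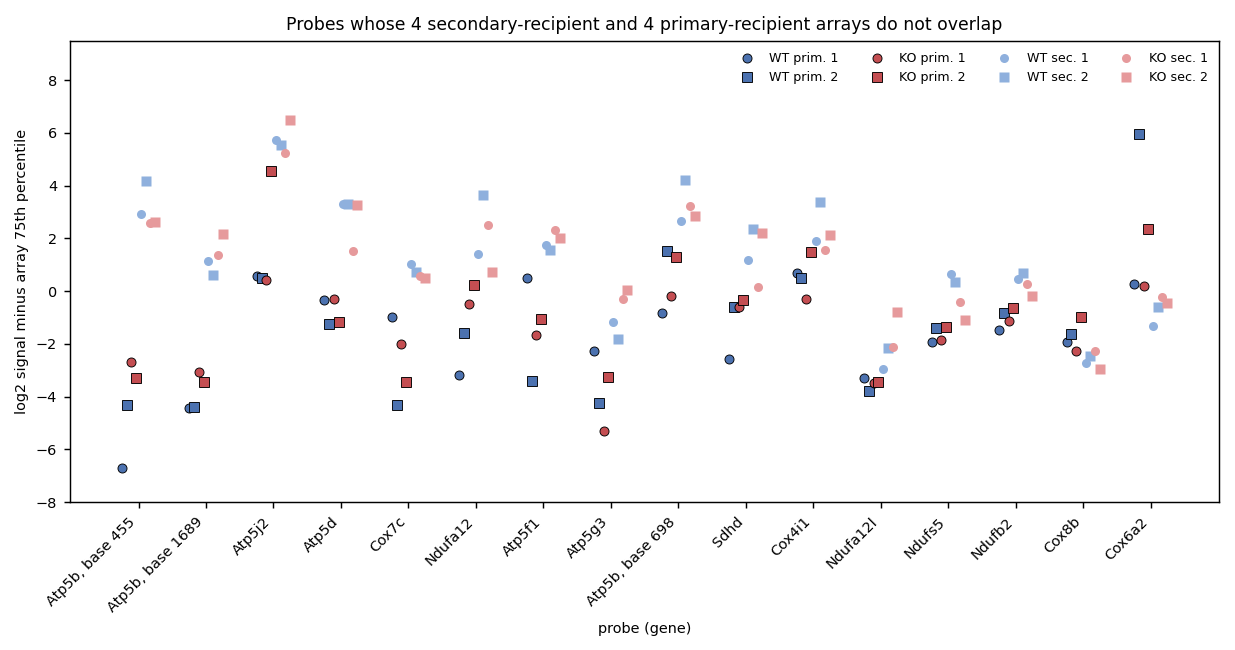
Levels (log2 processed signal minus the array's 75th percentile) on all 8 arrays of the 16 probes whose 4 secondary arrays and 4 primary arrays (outlined) do not overlap; circles are replicate 1 and squares replicate 2. The first 14 probes lie higher in secondary recipients, with the widest gaps for 2 of the 3 Atp5b probes, and Cox8b and Cox6a2 lie lower.

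Complex V held 7 of the 14 probes that lay higher without overlap. Atp5d, the delta subunit of the catalytic head, had levels of -0.34, -1.25, -0.30 and -1.17 on the primary arrays and 3.29, 3.31, 1.52 and 3.27 on the secondary ones (WT first), with a difference of 4.14 (SE 0.74, limma adjusted p = 0.084). The lowest secondary level, 1.52, was still well above the highest primary one. Atp5j2, the f subunit of the membrane part, had levels of 0.59, 0.49, 0.42 and 4.56 on the primary and 5.75, 5.53, 5.23 and 6.5 on the secondary arrays, with a difference of 4.76 (SE 1.01, limma adjusted p = 0.129). Here the dim KO array came close to the secondary ones. Atp5f1, subunit b of the peripheral stalk, had a difference of 3.84 (SE 0.92, limma adjusted p = 0.189) and Atp5g3, one of the genes for the proton-carrying c ring, one of 3.48 (SE 0.90, adjusted p = 0.222), and neither passed. The other tested probes of Atp5j2 and Atp5f1 overlapped between kinds of recipient. Atp5g3 was well above background on 1 of the 4 primary arrays and was no longer separated with levels raised to the lowest detected signal. Of the 23 probes of complex V, 20 lay above the median probe. The members of lowest p below it were Atp5g1 (-0.89, SE 0.83), another c ring gene, and Atp5k (-0.94, SE 0.91), subunit e, and both turned positive under normexp background correction.

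In complex IV, Cox7c, a small subunit, had levels of -1.0, -4.31, -2.02 and -3.43 on the primary and 1.03, 0.73, 0.56 and 0.48 on the secondary arrays, a difference of 3.91 (SE 0.88, limma adjusted p = 0.160). Its levels on the dim arrays, -4.31 and -3.43, were not well above background and are bounds. It entered the test only through the secondary groups. Cox4i1, the general form of regulatory subunit 4, stood at 0.71, 0.48, -0.31 and 1.48 on the primary and 1.91, 3.36, 1.57 and 2.14 on the secondary arrays, a difference of 2.18 (SE 0.76, adjusted p = 0.296). Both were separated between kinds of recipient, Cox4i1 by a narrow margin. Cox7a2, the general form of subunit 7a, had a difference of 4.49 (SE 1.32, adjusted p = 0.249) with overlap. The heart and muscle forms had differences below 0. Cox6a2 had levels of 0.29, 5.97, 0.20 and 2.36 on the primary and -1.31, -0.61, -0.23 and -0.46 on the secondary arrays, a difference of -2.34 (SE 1.29, adjusted p = 0.293). Its 2 highest levels were on the dim arrays. The difference was -0.92 (SE 0.73) for Cox7a1 and -0.38 (SE 0.68) for Cox8b, with Cox8b separated between kinds of recipient by a gap too small to show at 2 decimals, and the sign turned for Cox7a1 under normexp and for Cox8b with a filter to probes well above background on all 8 arrays.

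Complex III lay in a narrow band, with 11 of 11 probes above the median probe and 0 at an unadjusted p under 0.05. The lowest p belonged to the core protein Uqcrc2 (1.32, SE 0.69, limma adjusted p = 0.547) and to Uqcrq (1.82, SE 1.23, adjusted p = 0.580). For Uqcrq neither dim array was well above background. Cyc1, cytochrome c1, had a difference of 0.38 (SE 0.77). In complex II the membrane anchor Sdhd had levels of -2.56, -0.59, -0.59 and -0.35 on the primary and 1.18, 2.35, 0.17 and 2.22 on the secondary arrays, a difference of 3.03 (SE 0.87, limma adjusted p = 0.258) without overlap. The difference was 1.97 (SE 0.92) for the iron-sulphur subunit Sdhb, 0.54 (SE 0.72) for the flavoprotein Sdha by its probe at base 2356 and -0.11 (SE 0.80) for the other anchor Sdhc, none past the threshold. The Sdha probe at base 1512 had a difference of 6.49 (SE 1.57, limma adjusted p = 0.167), with levels of 1.62, -4.42, -7.27 and -3.45 on the primary and 1.97, 3.62, 3.46 and 1.29 on the secondary arrays, and was well above background on 1 of the 4 primary arrays. Cytochrome c (Cycs) had a difference of 1.72 (SE 1.18) by its probe at base 1019 and of -0.24 (SE 1.1) by that at base 1039, the latter with a sign that normexp, 2 other filters and leaving out both dim arrays turned.

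Complex I supplied 3 of the separated probes of subunits. Ndufa12, an accessory subunit, had by its probe at base 147 levels of -3.17, -1.57, -0.49 and 0.23 on the primary and 1.39, 3.67, 2.51 and 0.72 on the secondary arrays, a difference of 3.84 (SE 1.01, limma adjusted p = 0.222). Its other probes, at bases 167 and 429, overlapped, with replicate 2 of KO secondary at -0.36 and -4.98. Ndufs5 had a difference of 2.03 (SE 0.69, adjusted p = 0.296) and Ndufb2 one of 1.84 (SE 0.66, adjusted p = 0.324) by its probe at base 319. The Ndufb2 probe at base 4008 overlapped between kinds of recipient. The lowest p of the complex belonged to Ndufb3 (5.71, SE 1.37, adjusted p = 0.168) and Ndufa3 (5.09, SE 1.37, adjusted p = 0.216), whose arrays overlapped. Neither dim array was well above background for these probes, which entered the test only through the secondary groups. Ndufa7, an accessory subunit, had a difference below the median probe by 1 probe, of -0.85 (SE 0.84), and above it by the other, of 2.04 (SE 0.75), with r = -0.79 between them over the 8 arrays. Among the genes described apart, Ndufa12l was separated too, but not with levels raised to the lowest detected signal.

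WT cells from both kinds of recipient shared 1 slide, and in their comparison 0 members and 0% of all probes passed with limma. At an unadjusted p under 0.05, 14 members (12.4%) were higher in secondary recipients and 0 lower, against 7.16% and 5.17% of all probes. Under normexp the split was 13 higher and 3 lower, and it was 12 and 2 with the deposited values. The count rested on single arrays: it was 32 (28.3%, against 16.5% of all probes) without replicate 1 of WT primary and 8 (7.02% against 5.68%) without replicate 2 of WT secondary. The median difference was 1.68, with 84 of 113 above the median probe, and 2.43 without replicate 1 of WT primary. In KO cells, where recipient and slide cannot be told apart, 0 members and 0% of all probes passed with limma. With an unadjusted p under 0.05 there were 15 members (13.3%) higher and 0 lower, against 4.03% and 2.21% of all probes, or 9 in all (7.76% against 2.8%) without replicate 2 of KO secondary. The median difference in KO cells was 0.90, with 79 of 113 above the median probe, and 0.34 without both dim arrays. Complex V had the highest median of the 5 complexes in KO cells, at 2.70 with 20 of 23 probes above, and 1.71 with 16 of 23 above in WT cells.

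**Figure D4:**
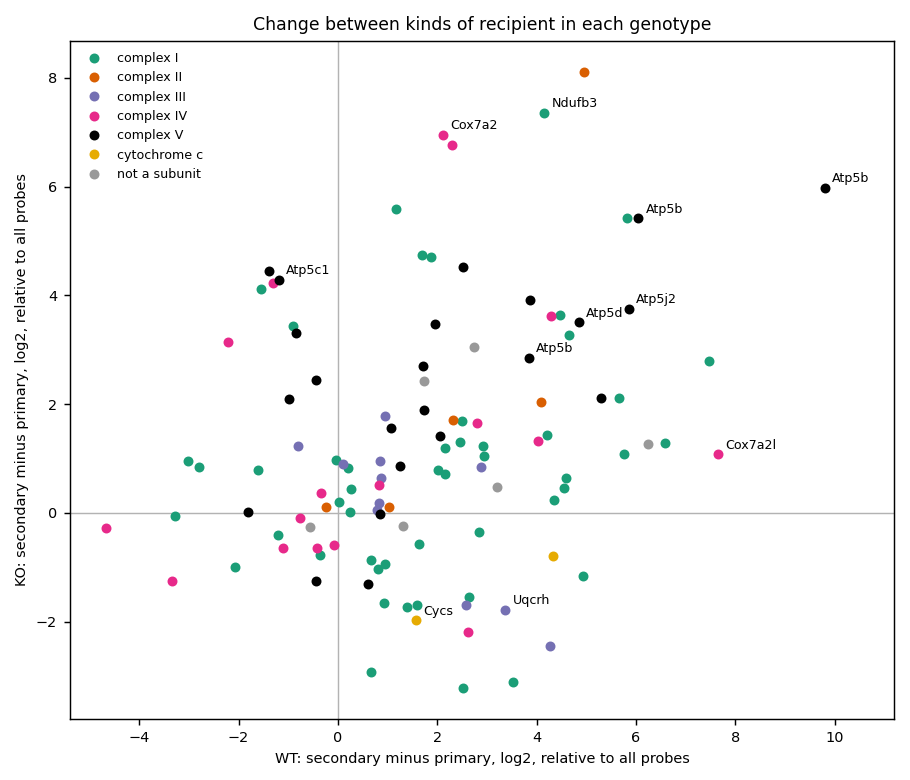
Secondary minus primary recipients (log2, relative to the median difference of all probes) in WT cells on the horizontal axis and in KO cells on the vertical axis, for the 113 tested probes, coloured by complex. Counted on each axis alone, 84 of 113 points are above 0 in WT and 79 of 113 in KO. Cox7a2l and Uqcrh lie farther along the WT axis than the KO axis and Cox7a2 and Atp5c1 the reverse. None of these interactions passed the adjusted test.

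Whether the difference between recipients differed by genotype was tested as an interaction. None of the 113 members and 0% of all probes passed with limma. At an unadjusted p under 0.05, 4 members (3.54%) had a larger difference in KO cells and 3 (2.65%) a smaller one, against 1.96% and 1.96% of all probes. Under quantile normalization the split was 3 and 4. The 4 were Atp5f1 by its probe at base 211, Atp5c1, the gamma subunit that turns inside the ATP synthase head (5.66), and Cox7a2 by both of its probes (4.66 and 5.01). The 3 were Uqcrq by its probe at base 782, Cox7a2l, known for joining complexes III and IV into supercomplexes (-6.40), and Cycs by its probe at base 1019 (-4.94). The probes of Atp5f1 and Uqcrq were well above background on 2 of the 8 arrays each, those of KO secondary and of WT secondary, so they have no measured interaction. Counts ranged from 2 to 15 when single arrays were left out. They were 15 (13.3% against 8.42% of all probes) without replicate 1 of WT primary, 12 (10.3% against 5.2%) without replicate 2 of WT primary and 12 (10.6% against 6.0%) without replicate 1 of KO primary. They were 4 (3.51% against 2.85%) and 2 (1.74% against 2.89%) without replicates 2 and 1 of WT secondary, and 3 (2.59% against 2.51%) without replicate 2 of KO secondary.

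KO and WT cells were compared to ask which transcripts differ in HSC without E47. In primary recipients 0 members and 0% of all probes passed with limma. There were 6 members (5.31%) higher and 9 (7.96%) lower in KO at an unadjusted p under 0.05, against 1.92% and 1.78% of all probes. The median difference was -0.34, with 69 of 113 members below the median probe, and it lay between -0.86 and -0.04 over the alternatives. The median difference of complex V was -1.27, with 17 of 23 probes below, that of complex III -1.50, of complex II -0.80, of complex IV -0.40 and of complex I -0.07.

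The members of lowest p lay in both directions within single complexes. Uqcrh, the hinge protein of complex III that binds cytochrome c1, had levels of 1.87 and 1.14 on WT primary and 4.99 and 9.89 on KO primary, a difference of 5.60 (SE 1.65, limma adjusted p = 0.999). Cox7a2l stood at -4.08 and -4.03 in WT and 3.16 and -0.19 in KO, a difference of 5.21 (SE 1.31). Both KO arrays lay above both WT arrays for each gene, and the WT levels of Cox7a2l included 1 not well above background. The difference was 4.65 (SE 1.74) for Cox6c, a small complex IV subunit, and 3.40 (SE 1.46) for Cycs. Ndufb11, an accessory subunit of complex I, was not well above background on either WT array and was on 1 of the 2 KO arrays. Its levels were -7.41 and -2.50 in WT and 3.03 and -3.39 in KO, so only replicate 1 of KO primary was high. On the other side the differences put Cox6a1 at -7.45 (SE 2.54), Ndufb10 at -5.43 (SE 1.96), Cox7a2 at -4.96 (SE 1.48), Ndufs7, a core subunit of complex I, at -4.95 (SE 1.63), and Atp5g2, a c ring gene, at -4.62 (SE 1.73). Each of these limma adjusted p-values was 0.999. The dim KO array was not well above background for Cox6a1, Cox7a2, Ndufs7 and Atp5g2. Without the dim WT array the differences were -3.67 for Cox6a1, -2.58 for Ndufb10, -2.74 for Ndufs7 and -2.70 for Atp5g2, and without replicate 1 of WT primary that of Cox7a2 was -2.66. Without the dim KO array those above were 3.71 for Uqcrh, 2.53 for Cox6c and 1.94 for Cycs, and without replicate 1 of KO primary that of Cox7a2l was 3.21. In complex II the differences put Sdhc at -3.08 (SE 1.20), Sdhb at -0.80 (SE 1.39), Sdhd at 0.77 (SE 1.24) and Sdha at 0.22 (SE 1.09) by its probe at base 2356. The Sdha probe at base 1512 lay the other way, at -4.29 (SE 2.18), and was not well above background on either KO array. The difference of Atp5c1 was -3.33 (SE 1.42), that of Uqcrb -3.36 (SE 2.30), of Uqcr -2.18 (SE 0.99) and of Cyc1 0.42 (SE 1.17). That of Ndufc1 was 3.53 (SE 2.18), of Atp5j2 1.62 (SE 1.46) and of Atp5j 0.94 (SE 2.83), and without both dim arrays the signs of Ndufc1, Atp5j2, Atp5j and Uqcrb turned. The other Ndufc1 probes had differences of 0.67 (SE 2.56) and -0.56 (SE 1.73). Without replicate 1 of WT primary, which leaves the dim array alone in its group with its spread taken from the other groups, 4 members (3.54%) and 1.83% of all probes passed. The members were Cox6a1 (-11.22), Ndufs3 (-10.38), Ndufb4 (-8.02) and Ndufc1 (7.45).

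In secondary recipients 0 members and 0% of all probes passed with limma. At an unadjusted p under 0.05, 1 member was higher and 1 lower (0.885% each), against 3.87% and 2.06% of all probes. They were Atp5f1 by its probe at base 211, with levels of -8.01 and -6.23 in WT, where it was not well above background, and -2.33 and -0.11 in KO, and Uqcrq by its probe at base 782, with -2.31 and -2.17 in WT and -8.18 and -7.79 in KO, where it was not well above background. Each of these probes entered the test only through the group in which it was high. The Uqcrq probe at base 400 stood at 0.34 and 0.14 in WT and -0.92 and -4.71 in KO, the same way. Atp5f1 at base 1306 stood at 1.73 and 1.58 in WT and 2.31 and 2.03 in KO, whereas its probe at base 231 stood at 1.42 and 1.36 in WT and 0.99 and -0.21 in KO, lower where the other probes were higher. The count of 2 became 13 (11.5%, against 10.6% of all probes) without replicate 1 of KO secondary, 4 (3.54% against 5.99%) without replicate 1 of WT primary and 6 (5.13% against 6.71%) without both dim arrays. The split was 1 and 3 with the deposited value table and 1 and 2 under quantile normalization. The median difference was -0.76, with 77 of 113 members below the median probe, 35 of 49 in complex I, 5 of 5 in complex II, 9 of 11 in complex III, 9 of 17 in complex IV and 17 of 23 in complex V. It stayed between -0.84 and -0.53 over the alternatives.

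Single members lay in both directions in secondary recipients, with limma adjusted p-values of 0.873 or more. Below stood Ndufa4 (-4.67, SE 2.81), Ndufa3 by its brighter probe (-4.05, SE 1.74, against 0.59, SE 2.83, by the other), Atp5a1, the alpha subunit of the ATP synthase (-3.75, SE 2.26), Uqcrq at base 400 (-3.45, SE 1.80), the Rieske protein Uqcrfs1 (-3.32, SE 2.07), Cox6a1 (-2.75, SE 2.54), Atp5g1 (-2.51, SE 1.25), Sdhc (-2.43, SE 1.20) and Cox4i1 (-1.18, SE 1.13). For Ndufa4, Atp5a1 and Cox6a1 replicate 2 of KO secondary alone was low, at -6.08, -2.65 and -3.56, with replicate 1 at 1.80, 3.64 and 0.63. Above stood Atp5c1 (2.45, SE 1.42), Ndufc2 (2.44, SE 1.93), Ndufa7 by 1 of its 2 probes (1.28, SE 1.24, against -1.55, SE 1.14, by the other), Cox6b2 (1.12, SE 1.36), Atp5g3 (0.98, SE 1.21), Uqcrh (0.76, SE 1.65) and Cox5b (0.42, SE 1.07). Sdhb was at -1.11 (SE 1.39), Sdhd at -0.96 (SE 1.24), Sdha at -0.39 (SE 1.09), Cyc1 at -0.01 (SE 1.17) and Cycs at 0.17 (SE 1.46).

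Over both kinds of recipient 0 members and 0% of all probes passed with limma. At an unadjusted p under 0.05, 4 members (3.54%) were higher and 6 (5.31%) lower in KO, against 3.40% and 1.23% of all probes. The split was 2 and 7 under array median scaling, 3 and 7 under quantile normalization and 2 and 8 with the deposited value table. The count of 10 became 3 (2.59%, against 3.69% of all probes) without replicate 2 of KO secondary and 6 (5.22% against 2.8%) without replicate 1 of WT secondary. The median difference was -0.70, with 73 of 113 members below the median probe, and -0.92 to -0.42 over the alternatives. Markers of HSC had a median of -1.13, with 8 of 12 below the median probe, and those of T and NK cells of 1.22, with 6 of 6 above, and their part in these results was not tested. For 6 members (5.31%) all 4 KO arrays lay above all 4 WT arrays, against 1.33% of all probes, and for 5 (4.42%) all lay below, against 0.448%. Without both dim arrays these were 7 (6.19% against 5.72%) and 8 (7.08% against 2.58%), and with levels raised to the lowest detected signal 6 (against 0.83%) and 5 (against 0.333%). Relative to each array's median probe, however, only 1 lay above (0.885% against 0.702%), Cox6c, and 5 below (4.42% against 0.683%), namely Sdhc, Uqcr, Cox6a1, Atp5g2 and Ndufs3. Separation of the Uqcrh, Cycs, Ndufaf1 and Cox7b probes thus depended on the scaling.

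By 75th percentile levels the 6 probes higher in KO were both of Uqcrh, both tested ones of Cycs, and those of Cox6c and Ndufaf1. The Uqcrh probe at base 254, at chr4:115567819-115567878 (mm8, minus strand), is shown as the member with the largest difference among them.
Uqcrh probe at base 254: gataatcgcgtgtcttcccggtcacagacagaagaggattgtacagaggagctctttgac

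Its levels were 1.87, 1.14, 4.06 and 4.19 in WT (primary first) and 4.99, 9.89, 4.41 and 6.15 in KO, a difference of 3.24 (SE 1.37, limma adjusted p = 0.863). The highest WT and the lowest KO level, 4.19 and 4.41, were both from secondary recipients and nearly equal. The Uqcrh probe at base 412 had levels of 2.76, -0.29, 3.20 and 2.91 in WT and 4.07, 8.30, 3.34 and 4.90 in KO, a difference of 2.70 (SE 1.30). Cycs by its brighter probe stood at -1.38, 0.00, 0.21 and 0.04 in WT and 1.02, 5.07, 0.61 and 0.78 in KO, a difference of 1.85 (SE 1.1), and 2.75 (SE 1.18) by the probe that shares 40 bases with it. Cox6c had 1.81, -0.04, 2.92 and 2.58 in WT and 3.19, 8.55, 3.51 and 3.11 in KO, a difference of 2.46 (SE 1.38). In Uqcrh, Cycs and Cox6c the highest level was that of the dim KO array. Ndufaf1 had levels of -1.96, -3.05, -3.69 and -3.93 in WT and -1.82, -0.37, -1.68 and -1.79 in KO, a difference of 1.44 (SE 0.71).

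The 5 probes lower in KO were those of Sdhc, Cox7b, Uqcr, Cox6a1 and Atp5g2 at base 225. Sdhc, at chr1:172966201-172966260, had levels of 2.36, 2.73, 2.44 and 0.68 in WT and -0.67, 0.28, 0.53 and -1.47 in KO, a difference of -2.69 (SE 0.80, limma adjusted p = 0.863), and it was well above background on all 8 arrays. Only its WT secondary replicate 2 came near the KO levels. Cox7b stood at 3.70, 9.94, 3.63 and 4.11 in WT and 3.51, -3.38, 3.49 and 2.16 in KO, a difference of -4.21 (SE 1.98). Uqcr, now named Uqcr11, stood at 2.14, 1.90, 0.98 and 1.75 in WT and 0.42, -0.08, 0.96 and 0.43 in KO, a difference of -1.57 (SE 0.68). Cox6a1 had a difference of -5.04 (SE 1.87) and Atp5g2 one of -2.86 (SE 1.29), each with its highest level on the dim WT array and its lowest on replicate 2 of a KO group. The other Atp5g2 probe, at base 442, had levels of 1.60, 2.94, 3.07 and 1.66 in WT and 3.70, -0.54, 2.50 and -0.15 in KO, which overlap.

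Other members named by the fixed rule overlapped between genotypes. Atp5a1 was at -4.09 (SE 1.51), Ndufb10 at -3.23 (SE 1.5), Uqcrfs1 at -3.09 (SE 1.38), Ndufv1, the NADH-binding core subunit of complex I, at -2.54 (SE 0.92) and Atp5g1 at -2.19 (SE 0.83). Above stood Cox7a2l (2.13, SE 1.37), Ndufb11 (2.0, SE 1.76), Ndufs6 (0.92, SE 0.82), Atp5j2 (0.78, SE 1.01), Cyc1 (0.26, SE 0.77) and Atp5j (0.19, SE 1.90). Sdhb was at -0.89 (SE 0.92), Sdhd at -0.04 (SE 0.87) and Sdha at -0.03 (SE 0.72), or -2.50 (SE 1.57) by its probe at base 1512. The limma adjusted p of each was 0.863 or more.

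Several genes had more than 1 probe, 27 of 85, and these show how closely probes of one gene follow each other. For 9 pairs of probes in 7 genes that share 20 or more bases, the SD over the 8 arrays of the difference of the 2 levels had a median of 0.70, and the median Pearson correlation was 0.97. For 25 pairs in 18 genes without shared bases the median SD was 2.65 and the median correlation 0.26, with a range from -0.79 to 0.96. These correlations are over 8 arrays that share their amplification and scaling, and are given as a description. The pair that held together best without shared bases was that of Uqcrh, with r = 0.96 and an SD of 0.78, and the 3 pairs of Atp5b had r = 0.91, 0.95 and 0.81. The 2 Sdha probes had r = -0.28. For secondary against primary recipients over both genotypes, 23 of the 25 pairs without shared bases had the same sign, and for KO against WT over both kinds of recipient 17 of 25.

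**Figure D5:**
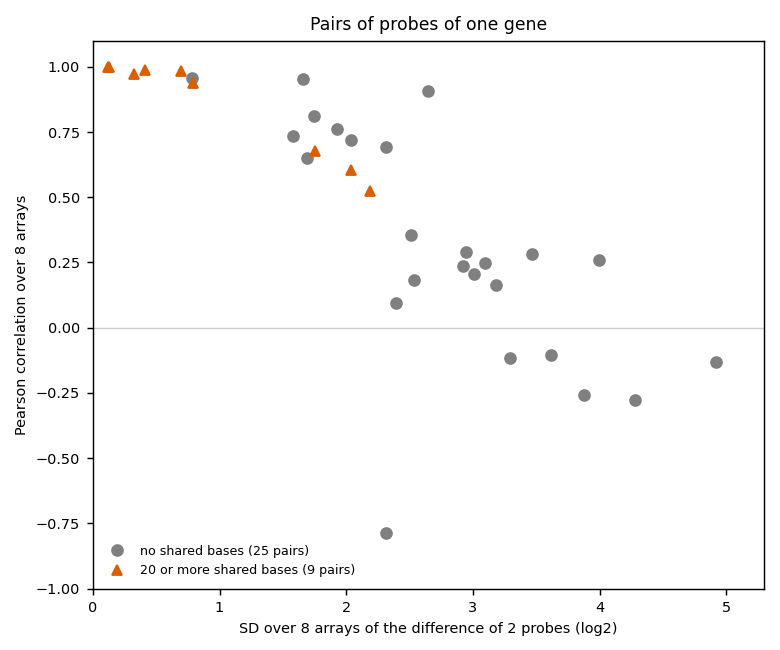
For each pair of tested probes of one gene, the SD over 8 arrays of the difference of their levels (log2) on the horizontal axis and their Pearson correlation over the same arrays on the vertical axis. Pairs that share 20 or more bases (triangles) lie mostly at the upper left, and pairs without shared bases (circles) spread down to a correlation of -0.79.

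Ndufs6, a zinc-binding accessory subunit of complex I, had 3 such probes within 1 short stretch. They lie on chromosome 13 (mm8, minus strand) and are printed with the 33 bases common to all in capitals. The probe at base 159 reaches across an exon junction, from chr13:73786372-73793429, and the others lie at chr13:73786350-73786409 and chr13:73786344-73786403.
Ndufs6 probe at base 159: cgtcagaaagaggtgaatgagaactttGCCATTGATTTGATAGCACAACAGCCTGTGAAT
Ndufs6 probe at base 180: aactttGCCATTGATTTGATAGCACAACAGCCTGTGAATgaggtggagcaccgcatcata
Ndufs6 probe at base 186: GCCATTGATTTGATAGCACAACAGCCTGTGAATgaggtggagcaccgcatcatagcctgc

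The probes at bases 180 and 186 share 54 bases and had r = 0.99 and an SD of 0.41, with levels on replicate 1 of WT primary of 0.03 and 0.51. The junction probe had r = 0.60 and 0.53 with them and a level of -4.43 on that array. On replicate 2 of WT secondary and replicate 1 of KO secondary all 3 lay between 2.01 and 2.47.

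Promoters were looked at because genes of the respiratory chain are known targets of the factors NRF1, GABP (an ETS factor) and YY1. RefSeq windows of GRCm38.p6, from 250 bases before to 50 after a gene's start, were matched by symbol for 66 of the 81 subunit and cytochrome c genes, giving 71 windows. On either strand GCGCATGCG, the NRF1 motif, was in 12.7% of them and in 1.75% of all 32851 windows. The ETS motif ACTTCCGG was in 7.04% against 3.89%, the YY1 motif AAGATGGCG in 9.86% against 1.40%, and the CCAAT box, searched as ATTGG, in 39.4% against 37.4%. Overlap of one motif with another was allowed. Of the 5 genes lower in every KO array by 75th percentile levels, 4 had a window. Those of Cox6a1, Atp5g2 and Uqcr11 held the NRF1 motif and that of Uqcr11 also the ETS motif. Of the 4 genes higher in every KO array, Ndufaf1 among them, 2 had a window, with the NRF1 motif in that of Cycs and the ETS motif in that of Uqcrh. Of the 12 genes with a probe higher on every secondary array, Ndufa12l among them, 10 had a window. Of these 10 genes 0 held the NRF1 or ETS motif, 1 the YY1 motif (Atp5j2) and 4 the CCAAT box (Atp5b, Atp5g3, Atp5j2 and Ndufb2). Ndufaf1 and Ndufa12l, as genes described apart, were not searched. Stretches of 3 windows, of genes lower (Cox6a1 and Atp5g2) or higher (Uqcrh) on every KO array, are printed with the motif in capitals, from chr5:115349072-115349160, chr15:102671041-102671129 and chr4:116075041-116075121 (GRCm38.p6, all minus strand), where the motif begins at -162, -42 and -11 from the gene's start.
Cox6a1 promoter: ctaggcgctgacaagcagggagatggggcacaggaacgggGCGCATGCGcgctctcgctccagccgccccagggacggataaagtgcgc
Atp5g2 promoter: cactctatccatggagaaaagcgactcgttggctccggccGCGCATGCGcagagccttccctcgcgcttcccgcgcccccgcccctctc
Uqcrh promoter: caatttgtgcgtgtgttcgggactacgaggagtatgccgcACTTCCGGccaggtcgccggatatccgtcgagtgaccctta

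Genes around the respiratory chain were counted in the same fit, and 0 members of these lists passed the adjusted test with limma in any comparison. Of 34 assembly factors and genes of cofactor supply, 24 lay above the median probe in secondary recipients over both genotypes, with a median of 0.41 and 4 at an unadjusted p under 0.05, all above, where 7.0% of all probes were higher and 10.4% lower. These were Hccs, the lyase that attaches haem to cytochrome c (5.46, SE 1.30), Lrpprc, which keeps mitochondrial mRNAs stable (3.28, SE 0.95), Acad9, a complex I assembly factor (3.13, SE 0.69), and Surf1, an assembly factor of complex IV (2.53, SE 0.82). Within WT cells 24 of the 34 lay above and 10 below, with a median of 1.25. Within KO cells 16 lay above and 18 below, with a median of -0.026. For KO against WT over both kinds of recipient, 18 of the 34 lay above, with 1 at an unadjusted p under 0.05, where 3.40% of all probes were higher and 1.23% lower. Of 14 regulators of respiratory genes, 10 lay above the median probe in KO, 4 of them at an unadjusted p under 0.05. These were Mterf, a mitochondrial transcription terminator (2.40, SE 1.04), the coactivator Ppargc1b (2.18, SE 1.05), the nuclear receptor Esrra (1.98, SE 0.89) and Gabpa, the DNA-binding part of GABP (1.66, SE 0.81), with a limma adjusted p of 0.863 each. In primary recipients alone 7 regulators lay above and 7 below, with 0 at an unadjusted p under 0.05. In secondary recipients 9 lay above and 5 below, with 2 higher at that threshold, where 3.87% of all probes were higher and 2.06% lower. Between kinds of recipient 1 regulator had an unadjusted p under 0.05, Tfam, which packs and transcribes mitochondrial DNA, at -1.72 (SE 0.79). Of 10 genes for the ATP synthase inhibitor and for carriers and channels, 8 lay below the median probe in KO, with Vdac3, an outer membrane channel, at -5.93 (SE 2.19), and Atpif1, which encodes the inhibitor, was at -3.86 (SE 1.28) in primary recipients.

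Subunits encoded by mitochondrial DNA were read by 3 probes, named ND4L, CYTB and COX2 in the files. The ND4L probe had levels of 2.94 and 10.80 on WT primary and 4.76 and 10.65 on KO primary, and between 5.33 and 5.67 on the secondary arrays. The others had levels of 10.57 to 11.13 on the dim arrays, 3.70 to 5.85 on the other primary arrays and 4.60 to 5.80 on the secondary ones. All 3 were thus highest on the dim arrays, where the median subunit encoded in the nucleus was lowest. Their median difference was -1.77 for secondary against primary recipients, and 0 of 3 had an unadjusted p under 0.05. The files place the COX2 probe on chromosome 1, so a near-identical nuclear copy can share its signal.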

How the data were processed

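RNA of 8 sorted HSC samples was measured on one-colour Agilent 4x44K arrays. The deposited scanner files hold spot intensity on a linear scale from Agilent Feature Extraction 10.5.1.1, background-subtracted per the file headers. The deposited value table holds a ratio to each array's median, as its column medians of 1 show, and served as an alternative.

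Outlier spots were left out and spots of a probe averaged. Levels were scaled to the 75th percentile, which assumes that arrays have a like spread of signals. Probes that at least 1 group had well above background on both arrays were fitted in R 4.3.3 by lmFit and eBayes of limma 3.58.1, as 4 group means or as genotype plus recipient, with Benjamini-Hochberg adjustment over all 32776 probes and a threshold of 0.05. The fit was tested on simulated data. The small number of arrays limits the precision.

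Genes were named by a fixed rule: members past the test, the 2 of lowest p per direction in complexes I, III, IV and V, all of complex II, Cycs and Cyc1, the smallest and largest ranges, members whose groups of 4 do not overlap, and tissue isoforms. A gene that the rule names is not reported here. Changes are printed for KO against WT and for secondary against primary over both genotypes. Members of the interaction and single values without replicate 1 of WT primary were named after their values were seen. The members and lists were chosen with earlier results of these data known. Symbols and promoters came from RefSeq (GRCm38.p6), with 105 probes matched by accession, 12 by symbol and 3 by synonym. Probe positions are those of the files (mm8). Alternatives were normexp, quantile and array median scaling, other filters, 1 probe per gene, a replicate block, slide as a random block and leaving out arrays. The counts of groups that do not overlap without both dim arrays, with raised levels or relative to the median probe, and the alternatives for unadjusted counts, were added after seeing the data. The NRF1 motif was shortened to 9 letters after a search with a longer form had been seen.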

Additional observations from a re-analysis of the deposited data

How the results depend on the processing

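In KO against WT (primary, secondary and both recipients), secondary against primary within WT and within KO, and the interaction, 0 members passed under the alternatives run, except for 4 in KO against WT in primary recipients without replicate 1 of WT primary (range 0 to 4 when arrays were left out). The 2 Atp5b calls became 0 under normexp, array median scaling, the deposited value table, no filter and without both dim arrays, with lowest adjusted p of 0.082, 0.072, 0.089, 0.069 and 0.067. A filter to probes well above background on all 8 arrays and 1 probe per gene left out both called probes, so these settings could not keep the calls. No member passed there, with lowest adjusted p of 0.129 and 0.099. The calls became 4 under quantile normalization (Atp5j2 and Atp5d added), stayed 2 with slide as a random block and with subunits only, and were 0 to 0 when single arrays were left out. The correlation that the slide block estimated between arrays of a slide was -0.089. A block with a correlation below 0 takes out no slide effect, so the calls kept there were not corrected for slide. With the replicate number as a replicate block the count was 0 (lowest adjusted p = 0.054). Deviations of same-numbered arrays correlated at 0.15 between WT primary and KO primary, in both of which replicate 2 was the dim array. Between all other groups they correlated at -0.04 to 0.01, so the numbers showed no pairing there. The block changed no other count of calls. Over all probes the count of 103 became 543 under quantile normalization, 228 with the slide block, 1 under normexp and 0 under the others. With subunits only it stayed 103, since the fit is the same. The median change for secondary against primary recipients lay within 1.30 to 2.43 (WT), 0.40 to 1.43 (KO) and 1.01 to 1.80 (both) when single arrays were left out. Without both dim arrays it was 1.27, 0.34 and 0.94. Of 82 gene changes, 62 kept their sign throughout. Without both dim arrays, KO against WT in primary recipients turned for Ndufc1 (-0.89), Uqcrb (0.074), Atp5j2 (-0.31) and Atp5j (-0.13), and in secondary recipients Cyc1 turned under quantile normalization (0.078). For secondary against primary recipients, normexp turned Ndufa7 (0.38), Cox7a1 (0.15), Atp5g1 (0.091), Atp5k (0.27), Sdhc (0.67) and Cycs (0.47), and quantile normalization Atp5k (0.52). Sdhc and Cycs turned with no filter (0.20 and 0.068), with the filter on all 8 arrays (0.64 and 0.51, Cox8b 0.37) and without both dim arrays (0.12 and 1.01), and Sdhc with 1 probe per gene (0.094). Leaving out arrays turned 14 changes. Their ranges for KO against WT in primary recipients were -0.40 to 7.45 (Ndufc1), -0.43 to 1.49 (Cyc1), -7.16 to 0.45 (Uqcrb), -2.71 to 4.81 (Atp5j), -0.0093 to 1.56 (Sdhd) and -0.52 to 1.19 (Sdha). In secondary recipients they were -0.29 to 1.63 (Uqcrh), -2.66 to 0.26 (Sdhb), -2.17 to 0.061 (Sdhd), -1.20 to 0.99 (Cyc1), -1.14 to 0.44 (Sdha) and -0.094 to 0.32 (Cycs). For secondary against primary recipients they were -0.46 to 0.30 (Sdhc) and -0.81 to 0.92 (Cycs). The causes were not tested. Signal over background limits the members at or below the lowest detected signal on the dim arrays.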
